A study of Mus musculus with 18 samples.

Results

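The mitotic genes of G2 and M phase are 46 genes whose products drive a cell from G2 through chromosome segregation to the separation of the daughter cells. They are a listed set of known mitotic genes, taken by symbol from the gene table. All 46 were found among the 18397 genes of the table, and all 46 were among the 12245 genes with enough counts to test. By role they comprise 7 genes of the cyclin and Cdk1 switch, 6 mitotic kinases and members of the chromosomal passenger complex, and 9 genes of the centromere, kinetochore and spindle checkpoint. The others are 4 genes of protein destruction and mitotic exit, 12 spindle motors and microtubule proteins, 6 genes of the central spindle and cytokinesis, and 2 genes of chromosome structure and proliferation.

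The series holds poly(A) RNA-seq of mouse cells labelled RAW264.7, a macrophage line, in 18 libraries that form 6 groups of 3. The groups are Soft, Soft+mito, Soft-TW, Stiff, Stiff+mito and Stiff-TW, and its title names stiffness-related transfer of mitochondria as the subject. Soft and Stiff name the matrix, and +mito and -TW name a further condition on each matrix that the labels do not explain. No genotype, time or dose is given for any group, and all 6 carry the same cell label. The labelled cell type was checked against its markers: the defining macrophage genes Csf1r, Adgre1, Ptprc and Spi1 reached at most 1.1, 0.14, 0.27 and 0.74 TPM (a level adjusted for transcript length and library size) in any library, and Adgre1 was listed at 0 in 9 libraries. Of 14 macrophage markers in the table, 2 averaged 10 TPM or more, while the keratin genes Krt8 and Krt18 ranged from 430.91 to 730.46 and from 233.29 to 319.27 TPM. The other epithelial markers, Epcam, Cdh1, Krt19, Cldn4 and Cldn7, reached at most 0.1, 0.34, 0.16, 0.18 and 0.14 TPM in any library. The markers therefore went against the label, and the cells are named here by group only.

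Cyclin-dependent kinase Cdk1, bound to A- and B-type cyclins, starts mitosis once Cdc25 phosphatases remove its inhibitory phosphates. Polo-like and Aurora kinases then build the spindle, the checkpoint holds anaphase until every kinetochore is attached, and Cdc20 with the anaphase-promoting complex destroys cyclin B and securin. Most of these genes are transcribed in G2, under the MuvB complex with B-Myb and Foxm1, from promoters that hold a cell cycle homology region (CHR) and CCAAT boxes bound by NF-Y. Their summed mRNA is widely read as a measure of proliferation. In RNA from a whole culture, a smaller share of cells in G2 and M cannot be told apart from less RNA of these genes per cell.

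The promoters are shown first because the shared CHR and CCAAT letters are a feature of these genes that their choice by symbol did not use. RefSeq promoters (GRCm38.p6, the assembly that mm10 is based on; 250 bases before to 50 after each start) were listed for 39 of the 46 genes, as 42 promoters. Not listed were Aurkb, Ccna2, Cdc25c, Dlgap5, Incenp, Kif20a and Tpx2. The CHR was searched as TTTGAA and also as TTCGAA, on both strands, and 30 of the 39 genes (76.9%) held a match. Among all 9745 genes tested that had a listed promoter, 17.0% held one. CCAAT, searched on both strands, was matched in 31 of the 39 genes (79.5%) against 44.0% of all those tested. Both motifs together were matched in 27 genes (69.2%) against 7.44%. The E2F letters TTGGCGC and also TTCCCGC were matched in 4 genes (10.3%) against 14.0%. No searched motif is contained in another, although matches may overlap at their ends. These are matches of letters and not measured binding.

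The 12 windows below run from 150 bases before the start to 50 after it, 5′ to 3′ along the gene, with CHR and CCAAT matches on either strand in capitals. Those of Cdc20, Plk1, Ccnb2 and Ube2c show how the motifs are laid out in textbook mitotic genes. Cenpa, Anln and Cdca3 are shown because their response to TW differed most between the matrices, and Bub1b because it rose most with TW on stiff matrix. Cdc25b, Ndc80, Cks2 and Gtse1 are shown because they departed from the others.
Cdc20, chr4:118437294-118437493, reverse strand: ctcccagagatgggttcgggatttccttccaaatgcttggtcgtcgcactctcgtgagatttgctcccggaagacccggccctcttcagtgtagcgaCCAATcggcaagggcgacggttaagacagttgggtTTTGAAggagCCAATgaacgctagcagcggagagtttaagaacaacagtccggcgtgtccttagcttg
Plk1, chr7:122159285-122159484, forward strand: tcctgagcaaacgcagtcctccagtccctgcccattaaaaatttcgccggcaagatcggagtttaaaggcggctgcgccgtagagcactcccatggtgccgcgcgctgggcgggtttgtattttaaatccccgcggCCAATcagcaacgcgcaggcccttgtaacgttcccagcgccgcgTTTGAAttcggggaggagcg
Ccnb2, chr9:70421505-70421704, reverse strand: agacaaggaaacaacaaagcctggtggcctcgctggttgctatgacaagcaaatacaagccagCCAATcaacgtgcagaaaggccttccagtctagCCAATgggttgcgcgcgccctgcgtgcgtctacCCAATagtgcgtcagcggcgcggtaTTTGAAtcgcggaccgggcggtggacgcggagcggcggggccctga
Ube2c, chr2:164769779-164769978, forward strand: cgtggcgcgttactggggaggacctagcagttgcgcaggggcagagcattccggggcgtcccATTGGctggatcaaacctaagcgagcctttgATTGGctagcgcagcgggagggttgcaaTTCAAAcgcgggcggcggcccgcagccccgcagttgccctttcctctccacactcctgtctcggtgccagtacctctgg
Cenpa, chr5:30666736-30666935, forward strand: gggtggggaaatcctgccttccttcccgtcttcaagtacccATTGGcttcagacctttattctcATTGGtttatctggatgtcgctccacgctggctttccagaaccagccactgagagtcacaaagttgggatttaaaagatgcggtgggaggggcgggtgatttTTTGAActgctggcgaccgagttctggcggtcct
Cdca3, chr6:124830026-124830225, forward strand: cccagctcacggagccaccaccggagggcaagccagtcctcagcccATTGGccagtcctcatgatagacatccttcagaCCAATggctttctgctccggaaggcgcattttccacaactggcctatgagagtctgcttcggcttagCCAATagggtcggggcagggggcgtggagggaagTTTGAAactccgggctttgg
Anln, chr9:22389157-22389356, reverse strand: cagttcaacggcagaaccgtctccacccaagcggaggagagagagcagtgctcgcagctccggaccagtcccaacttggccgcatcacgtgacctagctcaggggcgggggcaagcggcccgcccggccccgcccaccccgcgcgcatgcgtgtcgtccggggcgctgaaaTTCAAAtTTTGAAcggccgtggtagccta
Bub1b, chr2:118598061-118598260, forward strand: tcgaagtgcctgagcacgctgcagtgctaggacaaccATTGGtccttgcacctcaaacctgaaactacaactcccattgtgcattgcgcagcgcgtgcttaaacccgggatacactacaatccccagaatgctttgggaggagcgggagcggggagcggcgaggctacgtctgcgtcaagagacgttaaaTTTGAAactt
Cdc25b, chr2:131186798-131186997, forward strand: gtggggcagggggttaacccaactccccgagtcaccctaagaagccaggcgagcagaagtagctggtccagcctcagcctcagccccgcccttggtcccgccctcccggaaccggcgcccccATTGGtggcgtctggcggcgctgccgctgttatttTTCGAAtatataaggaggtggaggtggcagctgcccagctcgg
Ndc80, chr17:71526808-71527007, reverse strand: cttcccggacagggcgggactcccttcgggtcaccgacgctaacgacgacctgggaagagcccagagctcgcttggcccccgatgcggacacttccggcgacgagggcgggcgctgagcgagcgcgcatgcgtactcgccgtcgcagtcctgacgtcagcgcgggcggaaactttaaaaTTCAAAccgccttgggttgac
Cks2, chr13:51645082-51645281, forward strand: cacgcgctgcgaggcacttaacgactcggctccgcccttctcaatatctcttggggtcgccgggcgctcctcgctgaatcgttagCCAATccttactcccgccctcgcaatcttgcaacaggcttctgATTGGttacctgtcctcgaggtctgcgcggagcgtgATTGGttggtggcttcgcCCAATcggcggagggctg
Gtse1, chr15:85859557-85859756, forward strand: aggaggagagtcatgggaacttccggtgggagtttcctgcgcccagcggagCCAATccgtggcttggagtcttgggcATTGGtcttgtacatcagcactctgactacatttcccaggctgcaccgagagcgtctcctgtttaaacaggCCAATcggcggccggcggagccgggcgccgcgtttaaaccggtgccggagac

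In Ccnb2, 3 CCAAT matches stand 33 bases apart, with first bases at -87, -54 and -21 from the start, ahead of a CHR match at 5. The CHR match of Cdc20 begins at -18, between CCAAT matches at -53 and -8. Plk1 has 1 CCAAT match at -14 and 1 CHR match at 31, and Cdc25b has the rarer TTCGAA form at 8 with CCAAT on the opposite strand at -28. Anln and Ndc80 held CHR but not CCAAT letters in the 300 bases. Cks2 and Gtse1 held CCAAT but not CHR letters there. Over the 42 promoters, 44 CHR matches and 79 CCAAT matches were found, and 22 of the CHR matches but 4 of the CCAAT matches began after the start. Ect2, Prc1 and Gtse1 have overlapping promoters in the list, so sites in their overlap were counted for each promoter. The median first base was -1 for CHR and -67 for CCAAT.

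**Figure D1:**
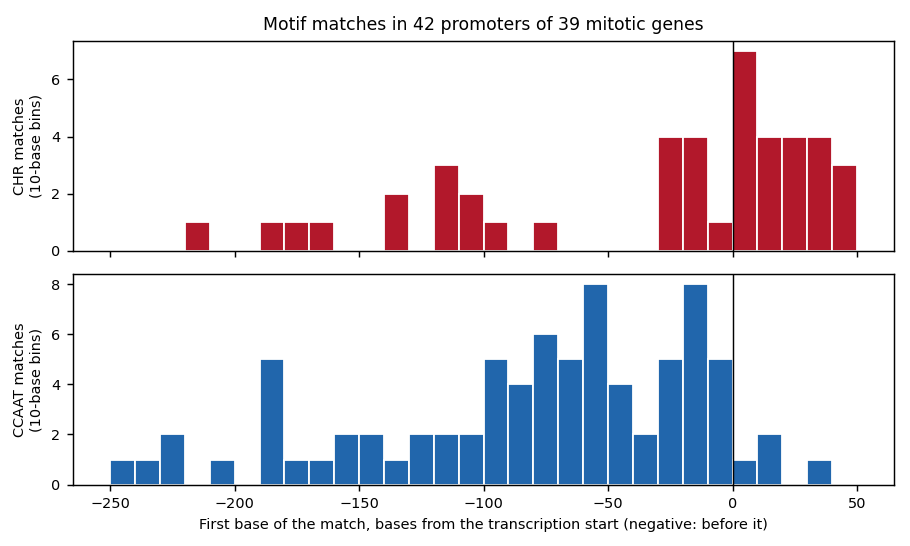
Number of CHR (upper panel) and CCAAT (lower panel) matches in 42 promoters of 39 mitotic genes, in 10-base bins by the first base of the match from the transcription start (x axis, in bases; the line marks the start). CHR matches gather around the start (median -1) and CCAAT matches before it (median -67). Sites shared by overlapping promoters of a gene are counted for each promoter.

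The libraries held 16054637 to 16887244 estimated counts each, and 11785 to 11909 genes with at least 10 counts. Replicate libraries were close to each other, with a common biological coefficient of variation of 0.0175, so that small differences passed the test. The labels call replicates biosamples without saying whether each was its own culture, so a p-value here rests on library-to-library spread that may be technical only. Library values below are CPM (counts adjusted for library size with TMM factors, the scale of the test), and differences are log2 fold changes from edgeR ± SE, with 3 libraries a group. A gene rose or fell where its adjusted p (Benjamini-Hochberg over all genes tested) was under 0.05. In 12 of the 46 genes at least 1 count was not whole, so reads were divided with other features, in all 18 libraries for Ccnb1, Hjurp, Kif4 and Kif20a. Ccna2, Aurka, Hjurp, Cdc20, Nusap1, Kif20a, Prc1 and Anln overlap another gene of the table on the genome. The sources used here do not say whether counting used strand, so values of these genes may hold reads of a neighbour.

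Per transcript length, Cks2, the small Cdk-binding subunit, was the most abundant member at a mean of 381 TPM over the 18 libraries. It was followed by the ubiquitin-conjugating enzyme Ube2c at 261 TPM and securin, Pttg1, at 149 TPM. The lowest were the giant kinetochore protein Cenpf at 15.3 TPM and the chromokinesin Kif4 at 16.4 TPM. Summed over the 46 genes, expression was 4119.8, 4097.8 and 4085.5 CPM in Soft and 4086.6, 4131.7 and 4157 CPM in Soft+mito. It was 3600.1, 3600.3 and 3598.2 CPM in Soft-TW. On the stiff matrix the sums were 5503.2, 5531.1 and 5494.8 CPM in Stiff, 5398, 5477.5 and 5495.1 CPM in Stiff+mito, and 6140.4, 6075 and 6099.7 CPM in Stiff-TW. From low to high the order of the groups was Soft-TW, Soft, Soft+mito, Stiff+mito, Stiff and Stiff-TW. Soft and Soft+mito overlapped, as did Stiff+mito and Stiff, and the other neighbours did not. On the authors' TPM scale the sums were 2945 ± 11.6 (SD, n = 3) in Soft and 2836 ± 14.8 in Soft+mito, so the order of these 2 groups depended on the scale.

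Gene by gene the order was much the same. Stiff-TW had the highest mean of the 6 groups for 38 genes, Stiff for 7 and Stiff+mito for 1. Soft-TW had the lowest mean for 43 genes, Soft for 2 and Soft+mito for 1. For 45 of the 46 genes every one of the 9 stiff libraries lay above every one of the 9 soft libraries, whereas this held for 6.27% of all genes tested. Gtse1 was the exception, since each of its Stiff-TW libraries lay below every Soft+mito library.

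**Figure D2:**
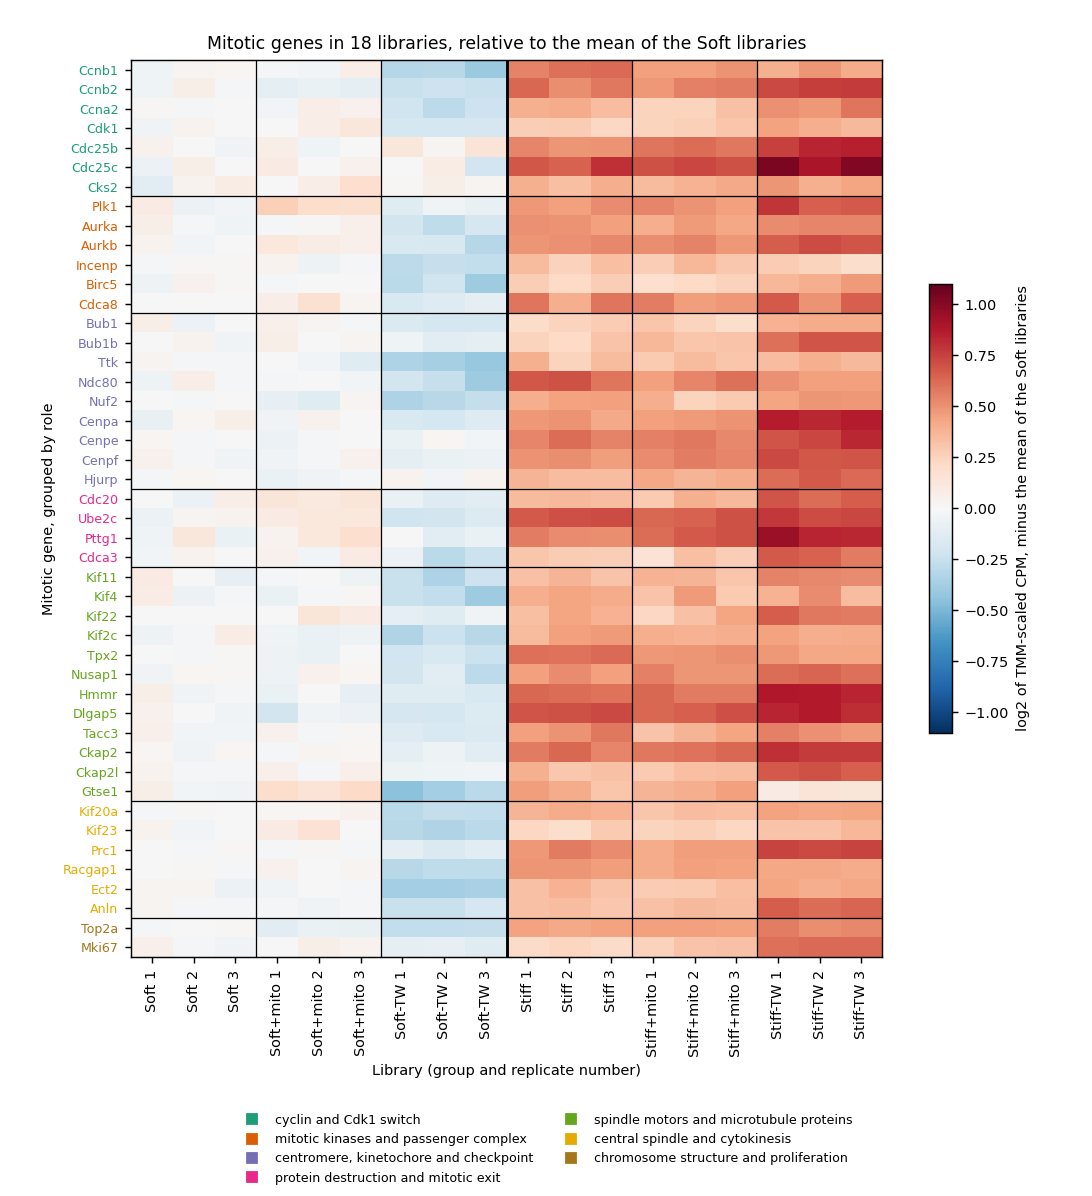
Level of each of the 46 mitotic genes (rows, label colour gives the role) in the 18 libraries (columns), as log2 TMM-scaled CPM minus the mean of the 3 Soft libraries; red is higher and blue lower. The 9 stiff libraries to the right of the thick line are red throughout, the Soft-TW libraries are mostly blue, and the Stiff-TW libraries are the deepest red for 38 of the 46 genes.

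Matrix stiffness was the first comparison. All 46 mitotic genes were higher in Stiff than in Soft, where 29.1% of all genes tested were higher and 24.7% lower. Their median log2 fold change was 0.43 (range 0.22 to 0.71), beside 0.015 over all genes tested. The largest differences were those of Cdc25c, 0.71 ± 0.067 (adjusted p = 3.5e-17), Dlgap5, 0.71 ± 0.043 (adjusted p = 4.37e-29), and Ube2c, 0.70 ± 0.033 (adjusted p = 1.71e-37). The smallest was that of the proliferation antigen gene Mki67, 0.22 ± 0.024 (adjusted p = 2.45e-14). On the TPM scale the median was 0.36 and that of all genes tested -0.055 or -0.064, and all 46 genes still passed in every alternative.

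The same comparison was made with each further condition present. All 46 genes were higher in Stiff+mito than in Soft+mito (background 32.7% higher and 30.8% lower), with a median of 0.40 and a range of 0.16 to 0.77. Dlgap5 (0.77 ± 0.044), Cdc25c (0.66 ± 0.066) and Hmmr (0.65 ± 0.035) differed most. All 46 were also higher in Stiff-TW than in Soft-TW (background 27.6% higher and 26.7% lower). There the median was 0.76 and the range 0.40 to 1.02, led by Cdc25c (1.02 ± 0.065), Cenpa (1.02 ± 0.037) and Dlgap5 (1.02 ± 0.044).

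**Figure D3:**
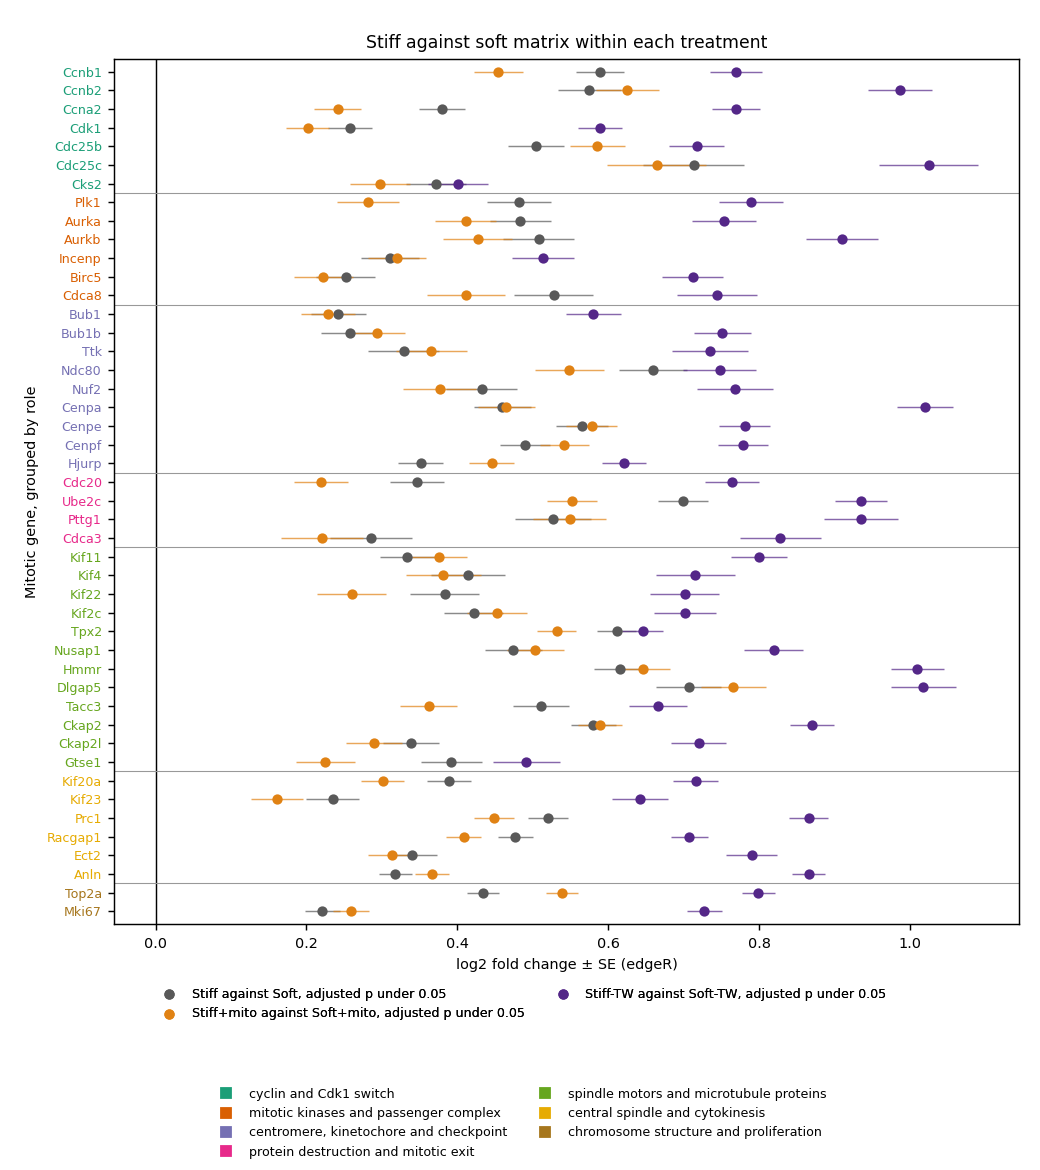
Log2 fold change ± SE of each mitotic gene between stiff and soft matrix without a further condition (grey), with mito (orange) and with TW (purple). Every point lies to the right of 0, and the purple points reach furthest, with a median of 0.76 against 0.43 and 0.40.

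With TW, mitotic genes mostly fell on soft matrix and mostly rose on stiff matrix, though not always the same genes. Cdc25c, Cenpe, Hjurp and Ckap2l, for example, rose on stiff matrix but did not pass on soft matrix. Against Soft, 35 mitotic genes fell in Soft-TW and 1 rose, with a median of -0.19 beside -0.004 over all genes (background 28.9% higher and 28.0% lower). Against Stiff, 30 rose in Stiff-TW and 5 fell, with a median of 0.15 beside 0.009 (background 35.5% higher and 34.1% lower). Ttk (-0.37 ± 0.052), Gtse1 (-0.37 ± 0.044) and Ect2 (-0.37 ± 0.035) fell most on soft matrix. Bub1b (0.40 ± 0.036), Mki67 (0.40 ± 0.023) and Cenpa (0.39 ± 0.034) rose most on stiff matrix, and Gtse1, Ndc80, Tpx2, Ccnb1 and Racgap1 were the 5 that fell there. The difference between these 2 responses was tested as the interaction of TW with the matrix. It was positive and past the test for 42 of the 46 genes and negative and past it for 0, with a median of 0.33 beside -0.0065 (background 16.4% higher and 19.7% lower). The lowest fitted value was 0.029, for Cks2, which did not pass and was below 0 with limma on TPM and without Soft replicate 3 (-0.018).

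The interaction was largest for Cenpa (0.56 ± 0.053, adjusted p = 2.87e-16), Anln (0.55 ± 0.032, adjusted p = 3.16e-30) and Cdca3 (0.54 ± 0.077, adjusted p = 3.5e-09). The 4 genes that did not pass were Cks2 (0.029 ± 0.057, adjusted p = 0.735), Tpx2 (0.034 ± 0.037, adjusted p = 0.513), Ndc80 (0.089 ± 0.067, adjusted p = 0.312) and Gtse1 (0.10 ± 0.060, adjusted p = 0.195). Of these, Tpx2, Ndc80 and Gtse1 fell with TW on both matrices, and Cks2 passed on neither. Ccnb1 and Racgap1 also fell on both matrices but passed the test of the interaction. A positive interaction is therefore not always a change of direction. For Tpx2 the interaction passed on the TPM scale, at 0.12. The median interaction was 0.34 for the 30 genes with a CHR match and 0.22 for the 9 without, but 0.33 with and 0.34 without a CCAAT match. For Stiff against Soft the CHR medians lay the other way, at 0.42 with and 0.47 without, and none of these was tested.

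**Figure D4:**
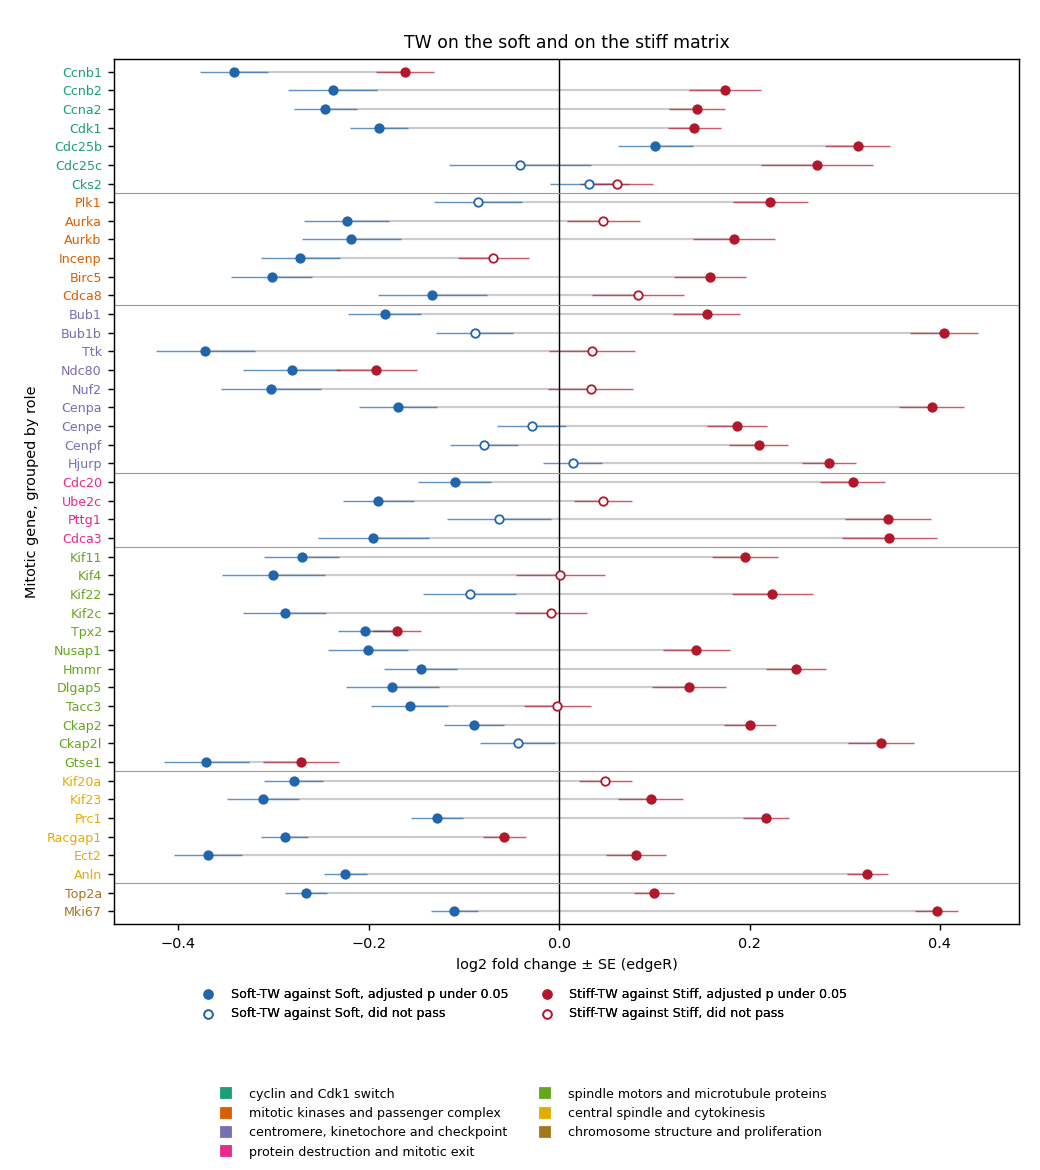
Log2 fold change ± SE of each mitotic gene with TW on the soft matrix (blue, Soft-TW against Soft) and on the stiff matrix (red, Stiff-TW against Stiff), joined by a grey line; open circles did not pass the test. In all 46 rows the red point lies to the right of the blue point; the medians are -0.19 and 0.15.

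Summed levels of cell type markers moved with TW as well. The summed level of the 14 macrophage markers was 40.87 to 42.24 TPM in Soft and 85.08 to 87.65 TPM in Soft-TW, and 33.2 to 37.88 TPM in Stiff and 56.46 to 58.71 TPM in Stiff-TW. Csf1r did not exceed 1.1 TPM and Adgre1 0.14 TPM in any of these libraries. The 8 fibroblast markers summed to 67.38 to 70.35 TPM in Soft, 102.46 to 104.35 in Soft-TW, 85.12 to 86.33 in Stiff and 144.86 to 148.42 in Stiff-TW. The 7 epithelial markers summed to 998.99 to 1028.33 TPM in Soft, 764.17 to 783.36 in Soft-TW, 695.52 to 713.5 in Stiff and 670.69 to 682.31 in Stiff-TW. Each of these 3 sums moved in the same direction with TW on both matrices, up for macrophage and fibroblast markers and down for epithelial markers. Each sum rested on few genes, since only 2 markers of each list averaged 10 TPM or more over the libraries. These were Lyz2 and Cd14 (macrophage), Col1a2 and Pdgfra (fibroblast), and Krt8 and Krt18 (epithelial), so the sums alone cannot show whether other markers moved. Some markers with lower averages varied between groups too. Group means ran from 4.07 to 14.42 TPM for Cd68, from 0 to 3.003 for Tyrobp and from 5.463 to 10.56 for Col3a1. In Soft+mito and Stiff+mito the sums were 50.13 to 54.42 and 41.78 to 44.88 TPM for macrophage, 60.75 to 64.44 and 99.41 to 106.15 for fibroblast, and 1030.65 to 1043.45 and 733.1 to 758.6 for epithelial markers. Endothelial (4 genes) and lymphocyte (3 genes) markers summed to at most 0.76 and 1.95 TPM in any library. Their part in the matrix and TW results was not tested.

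Mito changed few mitotic genes. In Soft+mito 4 rose and 1 fell against Soft, with a median of 0.013 (background 14.8% higher and 11.9% lower). Those that rose were Plk1 (0.21 ± 0.044, adjusted p = 7.18e-05), Gtse1 (0.18 ± 0.041, adjusted p = 0.000217), Cdc20 (0.12 ± 0.037, adjusted p = 0.00699) and Ube2c (0.11 ± 0.035, adjusted p = 0.0157), and the one that fell was Top2a (-0.091 ± 0.022, adjusted p = 0.000626). This balance depended on the scale: with limma on log2(TPM + 1) none rose and 18 fell, at a median of -0.078. Over all 12245 genes tested that fit gave 463 higher and 3232 lower, at a median of -0.072. The median of the mitotic genes therefore lay near that of all genes. With library totals only, the share of higher calls among all genes called went from 55.5% to 38.3%, and on log2(TPM + 1) to 12.5%. For Soft-TW against Soft the same share went from 50.8% to 38.6% with library totals and 28.8% on log2(TPM + 1).

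In Stiff+mito 3 genes rose and 7 fell against Stiff, with a median of -0.014 (background 15.6% higher and 17.8% lower). Pttg1 (0.13 ± 0.046, adjusted p = 0.0176), Mki67 (0.076 ± 0.023, adjusted p = 0.00637) and Cdc25b (0.089 ± 0.035, adjusted p = 0.0387) rose. Tacc3 (-0.13 ± 0.036, adjusted p = 0.00147), Ndc80 (-0.13 ± 0.042, adjusted p = 0.0116) and Ccnb1 (-0.12 ± 0.030, adjusted p = 0.000597) fell most, and Tpx2 (-0.12), Nuf2 (-0.12), Ccna2 (-0.11) and Prc1 (-0.077) were the others that fell. The 3 that rose numbered 0 to 3 when a single library was left out (0 without Stiff+mito replicate 3), and 1 with DESeq2. The 7 that fell numbered 4 to 6 when a single library was left out (4 without Stiff replicate 2).

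The interaction of mito with the matrix passed for 7 genes, 1 positive and 6 negative (background 10.4% higher and 13.1% lower). It was 0.11 ± 0.030 for Top2a (adjusted p = 0.00513), -0.20 ± 0.059 for Plk1 (adjusted p = 0.00765), -0.17 ± 0.056 for Gtse1 (adjusted p = 0.0198) and -0.15 ± 0.053 for Tacc3 (adjusted p = 0.0292). Ube2c, Ccna2 and Ccnb1 were the others, at -0.15, -0.14 and -0.14. The median over the 46 genes was -0.041, and on the TPM scale it was 0.037 or 0.038, with 5 genes positive and 0 negative. Over all 12245 genes tested the TPM scale gave a median of 0.068 or 0.08. There 2078 were positive and 535 negative on log2(TPM + 1). For all genes called, the share of positive interactions went from 44.3% to 58.1% with library totals and 79.5% on log2(TPM + 1).

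Set against each other, mito and TW differed in opposite directions on the 2 matrices. In Soft+mito 38 genes were higher and 1 lower than in Soft-TW, with a median of 0.21 (background 29.8% higher and 30.0% lower). Gtse1 (0.55 ± 0.043), Kif23 (0.39 ± 0.037) and Ect2 (0.35 ± 0.036) led, and Cdc25b (-0.093 ± 0.039, adjusted p = 0.0338) was the lower one. In Stiff+mito 1 gene was higher and 36 were lower than in Stiff-TW, with a median of -0.17 (background 30.2% higher and 31.8% lower). Cenpa (-0.38 ± 0.034), Cdca3 (-0.38 ± 0.050) and Ckap2l (-0.36 ± 0.035) were lowest, and Gtse1 (0.29 ± 0.040) was the higher one. These comparisons share their TW and mito libraries with those above and are not further evidence.

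The cyclin and Cdk1 switch comprises Ccnb1, Ccnb2, Ccna2, Cdk1, Cdc25b, Cdc25c and Cks2. All 7 rose on stiff matrix. With TW, 4 fell and 1 rose on soft matrix, and 5 rose and 1 fell on stiff matrix. Ccnb1 encodes cyclin B1, the main partner of Cdk1 at mitotic entry. Its level was 96.7, 102 and 101 CPM in Soft, 98.8, 97.9 and 105 in Soft+mito, 80.1, 81.0 and 75.2 in Soft-TW, 145, 152 and 154 in Stiff, 136, 137 and 140.3 in Stiff+mito, and 130.5, 140.1 and 132 in Stiff-TW. Stiff was the highest group and both TW groups lay below their matrix alone without overlap. Log2 differences of Ccnb1 were 0.59 ± 0.032 for Stiff against Soft, -0.34 ± 0.036 for Soft-TW against Soft and -0.16 ± 0.031 for Stiff-TW against Stiff. Ccnb2 encodes the second B-type cyclin. It stood at 45.8, 49.5 and 46.7 CPM in Soft, 44.3, 45 and 44.0 in Soft+mito, 39.9, 40.5 and 40.0 in Soft-TW, 73.1, 67.6 and 70.9 in Stiff, 65.8, 69.3 and 70.4 in Stiff+mito, and 78.2, 80.1 and 80.4 in Stiff-TW. Unlike those of Ccnb1, its Stiff-TW libraries were the highest of all. The differences of Ccnb2 were 0.58 ± 0.041 for Stiff against Soft, -0.24 ± 0.046 for Soft-TW against Soft and 0.17 ± 0.038 for Stiff-TW against Stiff.

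Cdk1 itself was at 135, 143 and 139 CPM in Soft, 139.9, 146 and 152 in Soft+mito, 122, 122 and 123 in Soft-TW, 167, 169 and 163 in Stiff, 165, 167 and 172 in Stiff+mito, and 189, 184 and 178 in Stiff-TW. Soft-TW was lowest and Stiff-TW highest, and neither overlapped its matrix alone. For Cdk1 the differences were 0.26 ± 0.029 for Stiff against Soft, -0.19 ± 0.030 for Soft-TW against Soft and 0.14 ± 0.028 for Stiff-TW against Stiff. Cyclin A2, Ccna2, which acts in S phase and G2, showed differences of 0.38 ± 0.031 for Stiff against Soft, -0.25 ± 0.033 for Soft-TW against Soft and 0.14 ± 0.029 for Stiff-TW against Stiff. Its stiff libraries spanned 138 to 176 CPM and its soft libraries 95.5 to 123 CPM.

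Neither of the Cdc25 phosphatases that switch Cdk1 on fell with TW on soft matrix. Cdc25b was at 67.0, 64.8 and 63.2 CPM in Soft, 68.6, 62.8 and 64.8 in Soft+mito, 70.9, 66.4 and 71.9 in Soft-TW, 94.2, 91.0 and 91.5 in Stiff, 97.5, 99.5 and 97.3 in Stiff+mito, and 109.8, 116 and 118 in Stiff-TW. Its Soft-TW libraries overlapped those of Soft, and Stiff-TW was highest without overlap. Differences for Cdc25b were 0.50 ± 0.037 for Stiff against Soft, 0.10 ± 0.039 for Soft-TW against Soft and 0.31 ± 0.034 for Stiff-TW against Stiff, and its rise on soft matrix was the only one among the 46 genes. That rise did not pass in 9 of 14 alternatives and its value was -0.013 on the TPM scale. Cdc25c was the least abundant member by counts, at 15.8, 17.2 and 16.5 CPM in Soft, 17.5, 16.4 and 17.0 in Soft+mito, 16.5, 17.4 and 14.2 in Soft-TW, 26.5, 25.9 and 28.8 in Stiff, 26.7, 27.4 and 26.7 in Stiff+mito, and 33.9, 30.7 and 33.4 in Stiff-TW. Soft-TW overlapped Soft, and every Stiff-TW library lay above every Stiff library. Cdc25c differences were 0.71 ± 0.067 for Stiff against Soft, -0.041 ± 0.074 for Soft-TW against Soft (not past the test, adjusted p = 0.663) and 0.27 ± 0.059 for Stiff-TW against Stiff. Cks2 was at 72.0, 81.0 and 83.4 CPM in Soft, 78.2, 82.6 and 89.3 in Soft+mito, 79.2, 82.1 and 80.2 in Soft-TW, 103, 99.0 and 104 in Stiff, 100.3, 102 and 105 in Stiff+mito, and 109.8, 103 and 106 in Stiff-TW. Its 3 soft groups overlapped each other, and so did Stiff and Stiff-TW. For Cks2 they were 0.37 ± 0.040 for Stiff against Soft, 0.032 ± 0.042 for Soft-TW against Soft (not past the test, adjusted p = 0.539) and 0.060 ± 0.038 for Stiff-TW against Stiff (not past the test, adjusted p = 0.159), and only the first of these 3 passed.

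Among the mitotic kinases and passenger proteins, Plk1, Aurka, Aurkb, Incenp, Birc5 and Cdca8, all 6 rose on stiff matrix. With TW 5 fell on soft matrix and 3 rose on stiff matrix, with none in the other direction. Plk1, the polo-like kinase of mitotic entry and spindle assembly, was at 51.6, 46.4 and 47.5 CPM in Soft, 58.2, 55.6 and 54.7 in Soft+mito, 44.2, 47.2 and 45.8 in Soft-TW, 67.6, 66.2 and 69.4 in Stiff, 70.2, 68.3 and 66.3 in Stiff+mito, and 83.3, 76.3 and 77.4 in Stiff-TW. The Soft+mito libraries were above the Soft ones, and the Soft-TW libraries overlapped them. Plk1 differences were 0.48 ± 0.043 for Stiff against Soft, -0.085 ± 0.046 for Soft-TW against Soft (not past the test, adjusted p = 0.107) and 0.22 ± 0.039 for Stiff-TW against Stiff. Aurka, the kinase of spindle poles, was at 53.2, 50.3 and 49.4 CPM in Soft, 50.3, 51.5 and 53.0 in Soft+mito, 44.3, 41.9 and 44.8 in Soft-TW, 72.4, 71.7 and 69.7 in Stiff, 67.2, 70.4 and 68.3 in Stiff+mito, and 73.0, 74.1 and 73.8 in Stiff-TW. Its Stiff-TW values lay just above those of Stiff, by a difference that did not pass. Aurka differences were 0.48 ± 0.040 for Stiff against Soft, -0.22 ± 0.044 for Soft-TW against Soft and 0.046 ± 0.038 for Stiff-TW against Stiff (not past the test, adjusted p = 0.273).

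Aurkb is the catalytic subunit of the passenger complex, which corrects wrong attachments of chromosomes. It was at 36.3, 34.5 and 35.1 CPM in Soft, 38.2, 37.3 and 36.7 in Soft+mito, 31.5, 31.2 and 28.3 in Soft-TW, 49.5, 50.1 and 51 in Stiff, 50.4, 51.3 and 49.1 in Stiff+mito, and 56.0, 58.0 and 56.9 in Stiff-TW. Soft-TW lay below and Stiff-TW above its matrix alone without overlap. Aurkb differences were 0.51 ± 0.047 for Stiff against Soft, -0.22 ± 0.052 for Soft-TW against Soft and 0.18 ± 0.043 for Stiff-TW against Stiff. Survivin, Birc5, holds the complex at the centromere and was at 60.1, 64.3 and 62.8 CPM in Soft, 61.4, 62.5 and 62.7 in Soft+mito, 50.7, 53.6 and 47.6 in Soft-TW, 75.2, 72.5 and 75.2 in Stiff, 70.7, 72.6 and 74.3 in Stiff+mito, and 80.4, 82.1 and 86.3 in Stiff-TW. Its Soft-TW libraries lay below Soft and its Stiff-TW libraries above Stiff. Birc5 differences were 0.25 ± 0.039 for Stiff against Soft, -0.30 ± 0.042 for Soft-TW against Soft and 0.16 ± 0.038 for Stiff-TW against Stiff. The scaffold Incenp had its highest mean in Stiff, and its differences were 0.31 ± 0.038 for Stiff against Soft, -0.27 ± 0.041 for Soft-TW against Soft and -0.069 ± 0.038 for Stiff-TW against Stiff (not past the test, adjusted p = 0.0929). Borealin, Cdca8, gave 0.53 ± 0.052 for Stiff against Soft, -0.13 ± 0.058 for Soft-TW against Soft and 0.083 ± 0.048 for Stiff-TW against Stiff (not past the test, adjusted p = 0.121).

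Of the 9 centromere, kinetochore and checkpoint genes, Bub1, Bub1b, Ttk, Ndc80, Nuf2, Cenpa, Cenpe, Cenpf and Hjurp, all 9 rose on stiff matrix. With TW 5 fell on soft matrix and on stiff matrix 6 rose and 1 fell. Cenpa encodes the histone H3 variant that marks centromeres. Its level was 58.6, 63.0 and 65.0 CPM in Soft, 60.4, 64.4 and 62.4 in Soft+mito, 55.2, 54.4 and 56.3 in Soft-TW, 86.4, 87.3 and 82.8 in Stiff, 84.8, 86.1 and 87.4 in Stiff+mito, and 113, 110.1 and 113 in Stiff-TW. The 3 Stiff-TW libraries stood above all others, and Soft-TW was lowest. Cenpa differences were 0.46 ± 0.038 for Stiff against Soft, -0.17 ± 0.041 for Soft-TW against Soft and 0.39 ± 0.034 for Stiff-TW against Stiff. Hjurp, the chaperone that loads Cenpa, changed with TW on stiff but not past the test on soft matrix, with differences of 0.35 ± 0.030 for Stiff against Soft, 0.014 ± 0.031 for Soft-TW against Soft (not past the test, adjusted p = 0.726) and 0.28 ± 0.028 for Stiff-TW against Stiff.

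The checkpoint kinase-like protein BubR1, from Bub1b, was at 62.1, 63.7 and 60.1 CPM in Soft, 64.8, 62.2 and 63.4 in Soft+mito, 59.8, 57.3 and 57.8 in Soft-TW, 73.5, 72.0 and 77.0 in Stiff, 79.6, 76.5 and 77.1 in Stiff+mito, and 94.4, 99.9 and 100 in Stiff-TW. Its Stiff-TW libraries were the highest of all, and its Soft-TW libraries lay below Soft without overlap although the difference did not pass. Bub1b differences were 0.26 ± 0.039 for Stiff against Soft, -0.089 ± 0.041 for Soft-TW against Soft (not past the test, adjusted p = 0.0541) and 0.40 ± 0.036 for Stiff-TW against Stiff. The motor Cenpe, which brings chromosomes to the spindle equator, was at 83.5, 81.7 and 82.1 CPM in Soft, 78.9, 81.5 and 82.3 in Soft+mito, 78.1, 83.7 and 80.5 in Soft-TW, 119, 126 and 121 in Stiff, 121, 123 and 118 in Stiff+mito, and 133, 137 and 146 in Stiff-TW. The 3 soft groups could not be told apart by their ranges. Cenpe differences were 0.57 ± 0.034 for Stiff against Soft, -0.029 ± 0.036 for Soft-TW against Soft (not past the test, adjusted p = 0.518) and 0.19 ± 0.031 for Stiff-TW against Stiff. The corona protein gene Cenpf was at 85.1, 81.4 and 80.3 CPM in Soft, 79.9, 81.2 and 84.9 in Soft+mito, 77.0, 78.0 and 78.7 in Soft-TW, 116, 117 and 113 in Stiff, 118, 122 and 119 in Stiff+mito, and 136, 132 and 133 in Stiff-TW. Soft-TW lay below Soft and Stiff-TW above Stiff without overlap. Cenpf differences were 0.49 ± 0.033 for Stiff against Soft, -0.079 ± 0.035 for Soft-TW against Soft (not past the test, adjusted p = 0.0501) and 0.21 ± 0.031 for Stiff-TW against Stiff.

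The other checkpoint kinases and the microtubule-binding Ndc80 complex fell with TW on soft matrix. Bub1 gave 0.24 ± 0.036 for Stiff against Soft, -0.18 ± 0.038 for Soft-TW against Soft and 0.15 ± 0.035 for Stiff-TW against Stiff. Ttk, also called Mps1, fell most of all members in Soft-TW and gave 0.33 ± 0.047 for Stiff against Soft, -0.37 ± 0.052 for Soft-TW against Soft and 0.035 ± 0.045 for Stiff-TW against Stiff (not past the test, adjusted p = 0.504). Ndc80 fell on both matrices and gave 0.66 ± 0.045 for Stiff against Soft, -0.28 ± 0.051 for Soft-TW against Soft and -0.19 ± 0.042 for Stiff-TW against Stiff. Its partner Nuf2 gave 0.43 ± 0.047 for Stiff against Soft, -0.30 ± 0.053 for Soft-TW against Soft and 0.033 ± 0.045 for Stiff-TW against Stiff (not past the test, adjusted p = 0.518). Bub1 rose with TW on stiff matrix, and Ttk, Ndc80 and Nuf2 did not pass as higher there.

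The 4 genes of protein destruction and mitotic exit, Cdc20, Ube2c, Pttg1 and Cdca3, rose on stiff matrix. With TW 3 fell on soft matrix and 3 rose on stiff matrix. Cdc20, the activator of the anaphase-promoting complex, was at 71.3, 68.6 and 75.2 CPM in Soft, 78.6, 77.3 and 78.5 in Soft+mito, 68.2, 65.1 and 66.1 in Soft-TW, 91.3, 91.5 and 90.7 in Stiff, 87.3, 94.0 and 91.5 in Stiff+mito, and 116, 109 and 114 in Stiff-TW. Every Soft+mito library lay above every Soft library, and Stiff-TW was highest. Cdc20 differences were 0.35 ± 0.036 for Stiff against Soft, -0.11 ± 0.038 for Soft-TW against Soft and 0.31 ± 0.034 for Stiff-TW against Stiff. Ube2c, the ubiquitin-conjugating enzyme of that complex, was at 75.6, 81.0 and 81.3 CPM in Soft, 84.3, 85.7 and 86.1 in Soft+mito, 68.0, 69.0 and 71.5 in Soft-TW, 126, 129 and 130.3 in Stiff, 122, 124 and 128 in Stiff+mito, and 136, 131 and 132 in Stiff-TW. It had one of the largest stiff to soft gaps and a small step between Stiff and Stiff-TW. Ube2c differences were 0.70 ± 0.033 for Stiff against Soft, -0.19 ± 0.037 for Soft-TW against Soft and 0.046 ± 0.031 for Stiff-TW against Stiff (not past the test, adjusted p = 0.171).

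Securin, from Pttg1, holds separase inactive until anaphase. Its level was 31.6, 35.5 and 31.1 CPM in Soft, 33.5, 35.5 and 37.1 in Soft+mito, 32.8, 30.1 and 31.1 in Soft-TW, 48.2, 46.8 and 46.4 in Stiff, 50.1, 52.1 and 53.0 in Stiff+mito, and 63.1, 58.4 and 58.2 in Stiff-TW. Soft overlapped both Soft+mito and Soft-TW, and the 3 stiff groups did not overlap, with Stiff lowest and Stiff-TW highest. Pttg1 differences were 0.53 ± 0.051 for Stiff against Soft, -0.063 ± 0.055 for Soft-TW against Soft (not past the test, adjusted p = 0.335) and 0.34 ± 0.045 for Stiff-TW against Stiff. Cdca3, which promotes mitotic entry through destruction of the kinase Wee1, gave 0.29 ± 0.054 for Stiff against Soft, -0.20 ± 0.058 for Soft-TW against Soft and 0.35 ± 0.050 for Stiff-TW against Stiff. Its libraries overlapped between Stiff and Stiff+mito, and those of Stiff-TW lay above both.

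Among the 12 spindle motors and microtubule proteins, Kif11, Kif4, Kif22, Kif2c, Tpx2, Nusap1, Hmmr, Dlgap5, Tacc3, Ckap2, Ckap2l and Gtse1, all 12 rose on stiff matrix. With TW 10 fell on soft matrix, and on stiff matrix 7 rose and 2 fell. Kif11, the motor that pushes spindle poles apart, was at 81.6, 76.5 and 72.2 CPM in Soft, 75.9, 76.9 and 73.7 in Soft+mito, 64.8, 60.7 and 65.3 in Soft-TW, 95.6, 99.2 and 95.4 in Stiff, 100.2, 99.0 and 94.9 in Stiff+mito, and 112, 111 and 109.7 in Stiff-TW. Soft-TW was lowest and Stiff-TW highest, without overlap with the matrix alone. Kif11 differences were 0.33 ± 0.036 for Stiff against Soft, -0.27 ± 0.039 for Soft-TW against Soft and 0.20 ± 0.034 for Stiff-TW against Stiff. Tpx2, which activates Aurka on the spindle, was at 157, 155 and 158 CPM in Soft, 151, 149 and 157 in Soft+mito, 135, 139.9 and 133 in Soft-TW, 239, 238 and 242 in Stiff, 218, 219.7 and 223 in Stiff+mito, and 218, 209.9 and 211 in Stiff-TW. Stiff was its highest group, and both Stiff+mito and Stiff-TW lay below it. Tpx2 differences were 0.61 ± 0.026 for Stiff against Soft, -0.20 ± 0.028 for Soft-TW against Soft and -0.17 ± 0.025 for Stiff-TW against Stiff. The hyaluronan-binding spindle protein from Hmmr was at 74.8, 69.4 and 70.4 CPM in Soft, 68.1, 71.2 and 67.1 in Soft+mito, 65.0, 65.3 and 63.7 in Soft-TW, 111, 109.6 and 108 in Stiff, 111, 106 and 106 in Stiff+mito, and 132, 131 and 128 in Stiff-TW. Stiff-TW was highest and Soft-TW lowest, and they differed by 1.01 ± 0.035 on the log2 scale. Hmmr differences were 0.62 ± 0.035 for Stiff against Soft, -0.15 ± 0.038 for Soft-TW against Soft and 0.25 ± 0.032 for Stiff-TW against Stiff.

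Gtse1, a microtubule protein known to restrain p53, stood apart, and its values were chosen for print after they were seen. It was at 61.7, 57.9 and 57.4 CPM in Soft, 67.4, 65.4 and 68.0 in Soft+mito, 43.1, 45.6 and 48.1 in Soft-TW, 80.9, 78.4 and 72.8 in Stiff, 76.2, 78.0 and 80.7 in Stiff+mito, and 62.7, 64.9 and 64.8 in Stiff-TW. It was highest in Stiff+mito by its mean, and its Stiff-TW libraries lay between those of Soft and those of Stiff. Gtse1 differences were 0.39 ± 0.040 for Stiff against Soft, -0.37 ± 0.044 for Soft-TW against Soft and -0.27 ± 0.040 for Stiff-TW against Stiff. The other kinesins differed between Stiff and Soft by 0.41 for Kif4, 0.38 for Kif22 and 0.42 for Kif2c, and Kif22 alone among Kif4, Kif22 and Kif2c rose with TW on stiff matrix, by 0.22 ± 0.043. Dlgap5, a stabiliser of kinetochore fibres, gave 0.71 ± 0.043 for Stiff against Soft, -0.18 ± 0.049 for Soft-TW against Soft and 0.14 ± 0.039 for Stiff-TW against Stiff. Nusap1 gave 0.47 ± 0.038 for Stiff against Soft, -0.20 ± 0.042 for Soft-TW against Soft and 0.14 ± 0.036 for Stiff-TW against Stiff and Ckap2 gave 0.58 ± 0.029 for Stiff against Soft, -0.089 ± 0.032 for Soft-TW against Soft and 0.20 ± 0.027 for Stiff-TW against Stiff. Ckap2l gave 0.34 ± 0.037 for Stiff against Soft, -0.043 ± 0.039 for Soft-TW against Soft (not past the test, adjusted p = 0.354) and 0.34 ± 0.035 for Stiff-TW against Stiff, and Tacc3, which links clathrin to the spindle, gave 0.51 ± 0.037 for Stiff against Soft, -0.16 ± 0.041 for Soft-TW against Soft and -0.002 ± 0.035 for Stiff-TW against Stiff (not past the test, adjusted p = 0.964).

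All 6 genes of the central spindle and cytokinesis, Kif20a, Kif23, Prc1, Racgap1, Ect2 and Anln, rose on stiff matrix and all 6 fell with TW on soft matrix. On stiff matrix with TW, 4 rose and 1 fell. Kif20a, the motor that carries the passenger complex to the midzone, was at 113, 116 and 114 CPM in Soft, 115, 116 and 118 in Soft+mito, 93.0, 95.2 and 94.6 in Soft-TW, 149, 152 and 149 in Stiff, 141, 145 and 144 in Stiff+mito, and 156, 154 and 155 in Stiff-TW. Soft-TW lay below all other libraries. Kif20a differences were 0.39 ± 0.029 for Stiff against Soft, -0.28 ± 0.031 for Soft-TW against Soft and 0.048 ± 0.028 for Stiff-TW against Stiff (not past the test, adjusted p = 0.113). Prc1, which bundles midzone microtubules, was at 159, 158 and 161 CPM in Soft, 157, 161 and 158 in Soft+mito, 148, 143 and 147 in Soft-TW, 221, 236 and 228 in Stiff, 212, 219 and 219 in Stiff+mito, and 267, 263 and 267 in Stiff-TW. Soft-TW was lowest and Stiff-TW highest, with no overlap with any other group. Prc1 differences were 0.52 ± 0.026 for Stiff against Soft, -0.13 ± 0.028 for Soft-TW against Soft and 0.22 ± 0.024 for Stiff-TW against Stiff.

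Ect2, the exchange factor that activates RhoA at the cleavage furrow, was at 93.6, 93.6 and 87.5 CPM in Soft, 89.3, 91.5 and 90.8 in Soft+mito, 70.5, 70.5 and 71.7 in Soft-TW, 115, 119 and 114 in Stiff, 111, 112 and 115 in Stiff+mito, and 124, 121 and 123 in Stiff-TW. Its fall in Soft-TW was among the 3 largest of the 46 genes. Ect2 differences were 0.34 ± 0.033 for Stiff against Soft, -0.37 ± 0.035 for Soft-TW against Soft and 0.081 ± 0.031 for Stiff-TW against Stiff. Anillin, from Anln, scaffolds the contractile ring and was at 326, 317 and 314 CPM in Soft, 314, 310.2 and 317 in Soft+mito, 269.9, 269 and 281 in Soft-TW, 398, 404 and 392 in Stiff, 399, 409 and 405 in Stiff+mito, and 507, 489.7 and 498 in Stiff-TW. Every Stiff-TW library lay above every other library, and Soft-TW was lowest. Anln differences were 0.32 ± 0.022 for Stiff against Soft, -0.22 ± 0.023 for Soft-TW against Soft and 0.32 ± 0.021 for Stiff-TW against Stiff. Centralspindlin is formed by Kif23 and Racgap1. Kif23 gave 0.24 ± 0.035 for Stiff against Soft, -0.31 ± 0.038 for Soft-TW against Soft and 0.096 ± 0.034 for Stiff-TW against Stiff, and Racgap1 gave 0.48 ± 0.023 for Stiff against Soft, -0.29 ± 0.025 for Soft-TW against Soft and -0.058 ± 0.023 for Stiff-TW against Stiff. The small fall of Racgap1 on stiff matrix did not pass without Stiff replicate 1 or without Stiff replicate 2.

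Top2a, the topoisomerase that untangles sister chromatids, was at 337, 344 and 344 CPM in Soft, 316, 324 and 323 in Soft+mito, 284, 284 and 285 in Soft-TW, 465, 457 and 464 in Stiff, 467, 467 and 465 in Stiff+mito, and 504, 487 and 493 in Stiff-TW. Every Soft+mito library lay below every Soft library, and the stiff libraries spanned 457 to 504 CPM. Top2a differences were 0.43 ± 0.021 for Stiff against Soft, -0.27 ± 0.022 for Soft-TW against Soft and 0.10 ± 0.021 for Stiff-TW against Stiff. Mki67, whose protein coats mitotic chromosomes and is the usual stain for cycling cells, was at 275, 262 and 258 CPM in Soft, 266, 278 and 273 in Soft+mito, 246, 249.4 and 242 in Soft-TW, 307, 313 and 307 in Stiff, 317, 329 and 332 in Stiff+mito, and 404, 408 and 409 in Stiff-TW. It had the smallest stiff to soft gap among the 46 genes but one of the largest steps from Stiff to Stiff-TW. Mki67 differences were 0.22 ± 0.024 for Stiff against Soft, -0.11 ± 0.024 for Soft-TW against Soft and 0.40 ± 0.023 for Stiff-TW against Stiff.

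Other cell cycle genes were listed by function, but with earlier results of these data known. Their counts stand beside backgrounds of 29.1% higher and 24.7% lower in Stiff against Soft, 28.9% and 28.0% in Soft-TW against Soft, and 35.5% and 34.1% in Stiff-TW against Stiff. Of 39 other mitotic genes, 30 were higher and 3 lower in Stiff than in Soft, 4 rose and 25 fell with TW on soft matrix, and 15 rose and 9 fell with TW on stiff matrix. Psrc1 (0.79 ± 0.046) and Nek2 (0.71 ± 0.045), both spindle or centrosome genes, led in Stiff against Soft, and the tubulin genes Tubb5 (-0.29 ± 0.019) and Tuba1c (-0.22 ± 0.021) were lowest. Tubb5 rose by 0.85 ± 0.019 and Cdkn3 by 0.50 ± 0.074 in Stiff-TW, while Trip13 (-1.02 ± 0.077) and Stmn1 (-0.37 ± 0.031) fell. Of 34 other kinetochore and checkpoint genes, 30 were higher and 0 lower in Stiff than in Soft, 0 rose and 29 fell with TW on soft matrix, and 4 rose and 20 fell with TW on stiff matrix. Oip5 (0.65 ± 0.086) and Cenpk (0.59 ± 0.119) led on stiff matrix, and Zw10 (-0.86 ± 0.048) and Mad1l1 (-0.82 ± 0.047) fell most in Stiff-TW.

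Genes of S phase encode the machinery of DNA replication. Of 40, 16 were higher and 11 lower in Stiff than in Soft, with a median of 0.063, and Rfc4 (0.50 ± 0.059) and Prim1 (0.45 ± 0.046) were highest and Pcna (-0.46 ± 0.025) and Cdc6 (-0.45 ± 0.064) lowest. With TW 37 fell on soft matrix and none passed as higher, at a median of -0.44, with Cdc6 (-0.82 ± 0.068) and Mcm5 (-0.81 ± 0.035) lowest. On stiff matrix 4 rose and 31 fell, at a median of -0.35. There the primase subunit gene Prim1 (-0.89 ± 0.050) was among those that fell most, and Lig1 (0.32 ± 0.040) and Gins2 (0.27 ± 0.086) rose most. In Stiff-TW against Stiff, then, 30 of the 46 members rose and 31 of 40 S phase genes fell, as did 20 of the 34 other kinetochore and checkpoint genes, and differences between lists were not tested.

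Cohesin and condensin genes (19) gave 12 higher and 1 lower in Stiff than in Soft, 5 higher and 11 lower with TW on soft matrix, and 10 higher and 4 lower with TW on stiff matrix. Ncapg (0.51 ± 0.041) and Ncaph (0.35 ± 0.042), condensin subunits, led in Stiff. Subunits and regulators of the anaphase-promoting complex (17) had 5 higher and 5 lower in Stiff, 2 and 7 with TW on soft and 6 and 6 with TW on stiff matrix, so its share higher in Stiff was near the background. Of 22 tested genes that control mitotic transcription, 6 were higher and 2 lower in Stiff, also no more than the background, and 6 and 10 changed with TW on soft and 6 and 7 on stiff matrix. Foxm1, the forkhead factor of G2 genes, was higher in Stiff by 0.34 ± 0.033 and Lin54, the MuvB subunit known to bind the CHR, by 0.34 ± 0.049. Foxm1 had an interaction of TW with the matrix of 0.42 ± 0.048 (adjusted p = 2.03e-12). Mybl2, which encodes B-Myb, changed with TW by -0.55 ± 0.071 on soft and by -0.62 ± 0.073 on stiff matrix. Of 12 tested G1 cyclins, kinases and inhibitors, 5 were higher and 3 lower in Stiff than in Soft, 6 and 3 with TW on soft and 8 and 3 with TW on stiff matrix. The D-type cyclin gene Ccnd2 was higher in Stiff (0.56 ± 0.044) and fell with TW there (-0.79 ± 0.046).

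**Figure D5:**
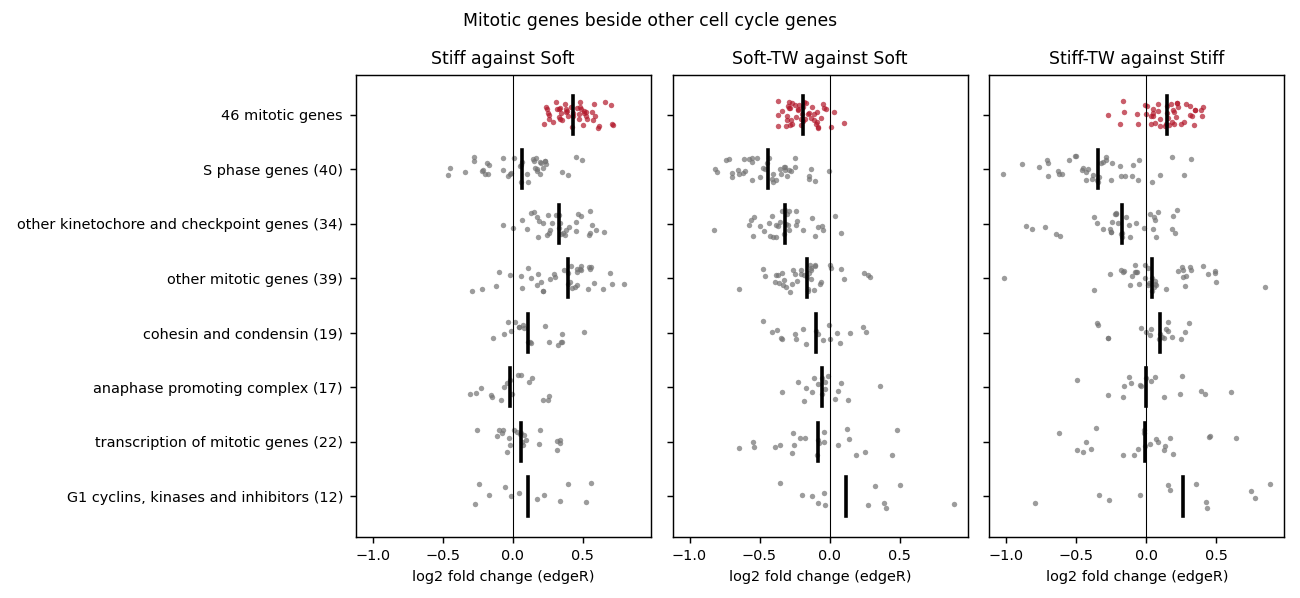
Log2 fold change of each gene (points) in the 46 mitotic genes (red) and 7 lists of other cell cycle genes (grey, number of genes tested in brackets) for 3 comparisons; black bars are medians and vertical positions within a row are scattered at random. The mitotic medians are 0.43, -0.19 and 0.15, and those of S phase genes 0.063, -0.44 and -0.35.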

How the data were processed

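RNA of 18 libraries, 3 in each of 6 groups taken from the sample group label, was sequenced as strand-specific paired-end libraries, per the labels' protocols. The authors deposited estimated counts per gene and per transcript, and 10.9% of gene values were not whole (tolerance 0.001). They also deposited TPM per gene, adjusted for length and library size. The mouse build was mm10, per the submitters' processing notes, and the sources used here name no aligner, quantifier or annotation. A further 44 columns of averages or unmatched values were not used.

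Estimated counts were rounded and tested with edgeR 4.0.16 (R 4.3.3; quasi-likelihood F-test, two-sided, robust). The model had 6 group means over all 18 libraries, with TMM factors and filterByExpr, which kept 12245 of 18397 genes. P-values were adjusted by Benjamini-Hochberg over all genes tested in each of 11 comparisons, and genes passed under 0.05. Each SE was derived from the log2 fold change and its F statistic (absolute change over root F). Alternatives were DESeq2 1.42.0 and its size factors, library totals only, no filter, only the groups compared, limma 3.58.1 on log2(TPM + 1) and log2(TPM + 0.1), a replicate block, and each library left out in turn. Scripts were tested on simulated data.

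Values in every library are given for 26 members chosen across the roles, and for Gtse1, added after its values were seen. Each comparison also names up to 3 of its largest calls in each direction, and, where 5 or fewer, the members that did not pass or went against the majority. From each other list up to 2 of the highest and 2 of the lowest calls are named. 1 gene that this rule names is not reported here. The members and lists were chosen with earlier results of these data known. Cell type markers comprised macrophage, epithelial, fibroblast, endothelial and lymphocyte lists.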

Additional observations from a re-analysis of the deposited data

Results flagged for a closer look

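The response to TW differed between soft and stiff matrix for 42 of the 46 mitotic genes, by the edgeR test of the interaction. The largest interactions on the log2 scale were those of the centromere histone Cenpa (0.5603), the contractile ring scaffold Anln (0.548) and the mitotic entry gene Cdca3 (0.5419). Cenpa, Anln and Cdca3 each fell in Soft-TW against Soft, and each rose in Stiff-TW against Stiff.

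The response to mito differed between the matrices for 1 mitotic gene in the positive and 6 in the negative direction, shares no larger than the 10.4% and 13.1% of all genes tested. On the TPM scale 5 were positive and 0 negative. Of all 12245 genes tested, 2078 were positive and 535 negative on log2(TPM + 1), so these shares were again no larger. With edgeR the positive one was Top2a (0.1053). Plk1 (-0.1999), Gtse1 (-0.167) and Tacc3 (-0.1493) were the most negative. The interaction of Tacc3 did not pass in 10 of 20 alternatives and that of Gtse1 in 7 of 20. Groups of 3 libraries were not tested for libraries that stand apart.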

How the results depend on the processing

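All 46 mitotic genes stayed higher on stiff matrix in each of the 3 stiff to soft comparisons when any library was left out. On log2(TPM + 1) and log2(TPM + 0.1) with limma, the median for Stiff against Soft was 0.355 and 0.36, for Soft+mito against Soft -0.078 and -0.079 (0 higher, 18 lower in both), for Soft-TW against Soft -0.291 and -0.296, for Stiff-TW against Stiff 0.101 and 0.102, for Stiff+mito against Stiff-TW -0.117 and -0.121, for the mito interaction 0.037 and 0.038 (5 higher, 0 lower) and for the TW interaction 0.379 and 0.388. For Stiff-TW against Soft-TW it was 0.717 on log2(TPM + 1). Over all genes tested, the limma medians were -0.072 and -0.082 for Soft+mito against Soft and 0.068 and 0.08 for the mito interaction. The same limma fits called 0 higher in Stiff+mito against Stiff and 5 higher in Stiff+mito against Stiff-TW. With library totals only, medians were -0.248 for Soft-TW against Soft, 0.102 for Stiff-TW against Stiff, 0.727 for Stiff-TW against Soft-TW and -0.121 for Stiff+mito against Stiff-TW. Library totals also gave 3 lower in Soft+mito against Soft, 6 higher in Stiff+mito against Stiff-TW, and 2 higher and 1 lower for the mito interaction. DESeq2 gave 1 higher in Stiff+mito against Stiff and 2 lower for the mito interaction, and DESeq2's size factors in edgeR gave 2 higher in Stiff+mito against Stiff-TW. The 1 gene higher in Soft-TW than in Soft (Cdc25b) became 0 with library totals, no filter, DESeq2 and limma, and the 1 lower in Soft+mito than in Soft-TW (also Cdc25b) became 0 with these and with DESeq2's size factors. Leaving out 1 library at a time gave 4 to 7 higher in Soft+mito against Soft, 0 to 3 higher and 4 to 6 lower in Stiff+mito against Stiff, 0 to 1 higher in Soft-TW against Soft, 0 to 1 lower in Soft+mito against Soft-TW, and 1 to 3 higher with medians of -0.172 to -0.151 in Stiff+mito against Stiff-TW. Direction reversed with limma on TPM for Cdc25b in Soft-TW against Soft (-0.013), and in Soft+mito against Soft for Cenpa (-0.094 and -0.095) and Kif20a (-0.068 and -0.069). The cause was not tested. With a replicate block, 36 mitotic genes fell in Soft-TW against Soft in place of 35, and the other counts did not move. Same-numbered libraries did not deviate together (r from -0.13 to 0.197), so the numbers were not taken as pairs. Depth, at 16054637 counts or more a library, limits mainly the least abundant members such as Cdc25c.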

Other observations

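The 2 listed transcripts of Cdc25b took unequal shares of its estimated counts between groups. The leading transcript held 64.6% in Soft (63.0 to 66.7% over 3 libraries) and 56.9% in Soft-TW (55.8 to 57.8%). It held 68.0% in Stiff (66.0 to 70.7%) and 48.9% in Stiff-TW (48 to 49.6%). In Soft+mito and Stiff+mito it held 67.6% and 61.1%. The highest share of all 18 libraries, 76.3%, lay among the mito libraries, so replicates of a group were not always close. The other transcript of Cdc25b carried a mean of 477.1 estimated counts in Stiff and 927.1 in Stiff-TW, while the leading one carried 1013 and 888.6. On either matrix the TW libraries did not overlap those of the matrix alone. Mean shares differed between groups for other members too. The leading transcript of Bub1 held a mean of 47.7% in Soft and 29.3% in Stiff, and that of Racgap1 73.0% in Stiff and 63.1% in Stiff-TW. Over single libraries the share ran from 22.2 to 60.3% for Bub1 and from 62.3 to 78.4% for Racgap1. Whether their groups overlapped is not given here. These shares are the authors' division of reads between transcripts, and no test was made of them.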
